A study of Mus musculus with 2 samples.

Results

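The solute carriers of inorganic ions, phosphate and metals were read in mammary epithelial cells of Cuzd1-null mice and of heterozygous littermates. The members were the probe sets whose single gene symbol belongs to the Slc4a, Slc8a, Slc9a, Slc11a, Slc12a, Slc20a, Slc26a, Slc30a, Slc31a, Slc34a, Slc39a, Slc40a or Slc41a family. These were 142 probe sets of 45037, for 74 genes of 18193. Names that begin like a member but denote another protein, such as the scaffolds Slc9a3r1 and Slc9a3r2, were not counted as members.

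Both groups were mice bred towards a C57BL/6 background, mated to fertile males and taken on day 18 of pregnancy, when the gland fills with secretory alveoli shortly before birth. The groups differ in the Cuzd1 gene, whose protein carries CUB and zona pellucida-like domains: 1 group carried a single disrupted copy and the other lacked the gene. The heterozygous group is the control, so no animal with both copies intact enters the comparison. RNA of 5 mice per genotype was pooled and each pool was read on 1 array of 3′ expression probe sets, so there is no replicate and no test, and each difference is a difference between 2 pools. Epithelial cells were freed from inguinal glands by hyaluronidase and collagenase with shaking, and no sort is recorded.

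Solute carriers of these families move inorganic ions across membranes. Zinc exporters (Slc30a, ZnT proteins) lower cytosolic zinc by pumping it out of the cell or into vesicles, and zinc importers (Slc39a, ZIP proteins) raise it. In the secreting mammary gland these carriers, together with those for iron, copper, phosphate, chloride and bicarbonate, supply the minerals of milk and set its ionic makeup.

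Among members above background in both pools, those with ratios farthest from 0 were chosen for a search of the sequence before the gene start. These were Slc39a8, Slc34a2, Slc4a11 and Slc30a1, and Slc4a11 had no sequence in the promoter collection used. The search was made because zinc-responsive genes such as Slc30a1 and the metallothioneins are known targets of the metal-sensing transcription factor MTF1. The sequences come from RefSeq on build GRCm38.p6 and are the 250 bases before the start, on the plus strand, 5′ to 3′. Capitals mark the core of the metal response element, written TGCACNC or TGCGCNC on either strand.
Slc39a8, second start, chr3:135825407-135825656: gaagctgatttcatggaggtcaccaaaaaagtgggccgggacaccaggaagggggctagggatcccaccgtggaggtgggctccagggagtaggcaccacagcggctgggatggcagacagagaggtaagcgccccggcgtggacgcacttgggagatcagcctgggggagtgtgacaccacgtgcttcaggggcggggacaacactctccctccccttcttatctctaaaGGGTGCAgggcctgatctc
Slc34a2, chr5:53049103-53049352: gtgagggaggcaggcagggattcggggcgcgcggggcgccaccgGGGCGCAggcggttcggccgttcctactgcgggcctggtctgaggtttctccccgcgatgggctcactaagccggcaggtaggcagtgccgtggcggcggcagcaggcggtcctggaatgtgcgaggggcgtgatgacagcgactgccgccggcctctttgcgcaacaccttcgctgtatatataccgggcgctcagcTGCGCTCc
Slc30a1, chr1:191906531-191906780: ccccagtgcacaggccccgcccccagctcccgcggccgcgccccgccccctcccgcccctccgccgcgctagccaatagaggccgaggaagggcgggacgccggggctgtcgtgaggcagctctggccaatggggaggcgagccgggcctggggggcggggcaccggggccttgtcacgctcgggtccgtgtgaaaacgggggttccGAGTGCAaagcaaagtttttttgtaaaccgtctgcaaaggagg

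The core occurred once before the second start of Slc39a8 (19 to 13 bases upstream) and once before Slc30a1 (43 to 37 bases upstream). It was found at 2 places before Slc34a2, 206 to 200 and 8 to 2 bases upstream. The first of the 2 Slc39a8 starts had 0 matches. Of 72 member promoters, from 58 genes, 34.7% held the core, against 21.4% of all 32851 promoters in the table. The median GC content was 60.2% and 52.4%, respectively, and its part in the difference was not tested. Of the 44 promoters of measured members, 45.45% held the core, at a median GC content of 62%. The share over promoters of all measured genes was not computed. The 45.45% therefore cannot be set against the 21.4%, which also covers genes not measured. The sequences shown for Slc39a8, Slc34a2 and Slc30a1 had a GC content of 62.0%, 69.6% and 71.2%. A STAT element, TTCNNNGAA on either strand, was in 2.78% of member promoters and 7.02% of all, and in none of the sequences shown. A match to so short a motif is a description and not a binding site.

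Signals are linear MAS5 intensity units, scaled to the same trimmed mean of 150.0 on both arrays, with maxima of 19898 and 18300 units. The ratio of 3′ to 5′ actin signal was 1.27 in the heterozygous and 1.24 in the null pool. An array's floor is its median over all non-control probe sets, 34.2 units for heterozygous and 32.5 units for null, since signals below it are mostly background. A gene is called measured where its brightest probe set is above the floor on at least 1 array, and values below a floor were set to it before the log2 ratio, null over heterozygous, was computed. Cuzd1 itself read 32.4 and 34.0 units, at the floor in the heterozygous pool, so it does not check the labels. The 9 hybridization control probe sets, usually added in equal amounts, had a median log2 ratio of -0.23. Rescaling to them adds 0.23 to the ratio of a gene above both floors, so a deposited ratio between -0.23 and 0 lies above 0 after rescaling. The older 9 probe sets for the same control transcripts had a median of -0.18. They were used first, and the newer ones were taken after results of both had been seen.

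The epithelial label was checked on its markers. All 8 secretory luminal markers, among them Csn2, Wap, Krt8 and Krt18, were above both floors, with summed signals of 81732 units in heterozygous and 77273 in null cells. Markers of other cell types were present too. The 6 fibroblast markers summed to 7097 and 10749 units, the 6 endothelial markers to 1035 and 1540, and the 6 macrophage and myeloid markers to 3588 and 4864. The 6 myoepithelial markers summed to 17741 and 16183 units, most of it Acta2 at 12211 and 11312 units (log2 ratio -0.11). The other myoepithelial markers went both ways. Krt14 and Krt5 had log2 ratios of -0.69 and -0.47, and Trp63, Oxtr and Myh11 had 0.53, 0.13 and 0.01. Of the adipocyte markers, 3 were measured, with Cidec and Pck1 below both floors and Fabp4 the main signal, at a sum of 6935 and 6208 units. B and plasma cell markers summed to 181 and 625 units over 4 measured members, and T cell markers to 86.6 and 143 over 3, with Cd3e and Cd4 below both floors. Of the erythroid markers 1, Alas2, was measured, in the null pool alone at 40.1 units. In pooled tissue, fewer cells of a type and less RNA per cell cannot be told apart, and the part of these cell types in the ratios below was not tested.

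Of the 74 carriers, 47 were measured, 40 of them above both floors. No measured member was 2-fold apart, where 2.15% of all 11893 measured genes were: 0 members were 2-fold higher, against 1.12%, and 0 were 2-fold lower, against 1.03%. At 1.5-fold, 8 members were lower, where 4.93% of all measured genes were, and 1 was higher, where 5.83% were. The 8 lower genes were Slc39a8, Slc34a2, Slc9a4, Slc30a1, Slc39a3, Slc4a3, Slc41a2 and Slc41a3, which make up 17.0% of the measured members. The 1 higher gene was Slc4a11. The median log2 ratio of the 47 was -0.09, with quartiles of -0.33 and 0.06, and that of all measured genes was 0.03. Below 0 lay 29 members (61.7%, against 46.0% of all measured genes) and above it 18. After rescaling to the hybridization controls, 15 members (31.9%, against 20.4% of all measured genes) were below 0 and 32 above. The members' median was then 0.14 and that of all genes 0.26. The 32 include Slc9a3 and Slc4a9, whose null signals were below the floor, so that the floor set their sign. Of the 40 members above both floors, 12 (30%, against 19.2% of all such genes) were below 0 and 28 above on that scale. On that scale 2 members were at least 1.5-fold lower (2.08% of all genes) and 3 at least 1.5-fold higher (15.1% of all genes). With the older control probe sets 5 members were at least 1.5-fold lower (2.50% of all genes) and 2 higher (12.6% of all genes). The members' median was then 0.09, against 0.21 for all genes, with 18 members below 0 and 29 above. Slc39a8 and Slc34a2 are the members counted as at least 1.5-fold lower on every one of these 3 scales. Slc9a4, at the floor in the null pool, was at -0.58 with the newer controls, from signals of 57.0 and 27.1 units. That ratio is a bound set by the floor, so it cannot show that Slc9a4 fell short of 1.5-fold.

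**Figure D1:**
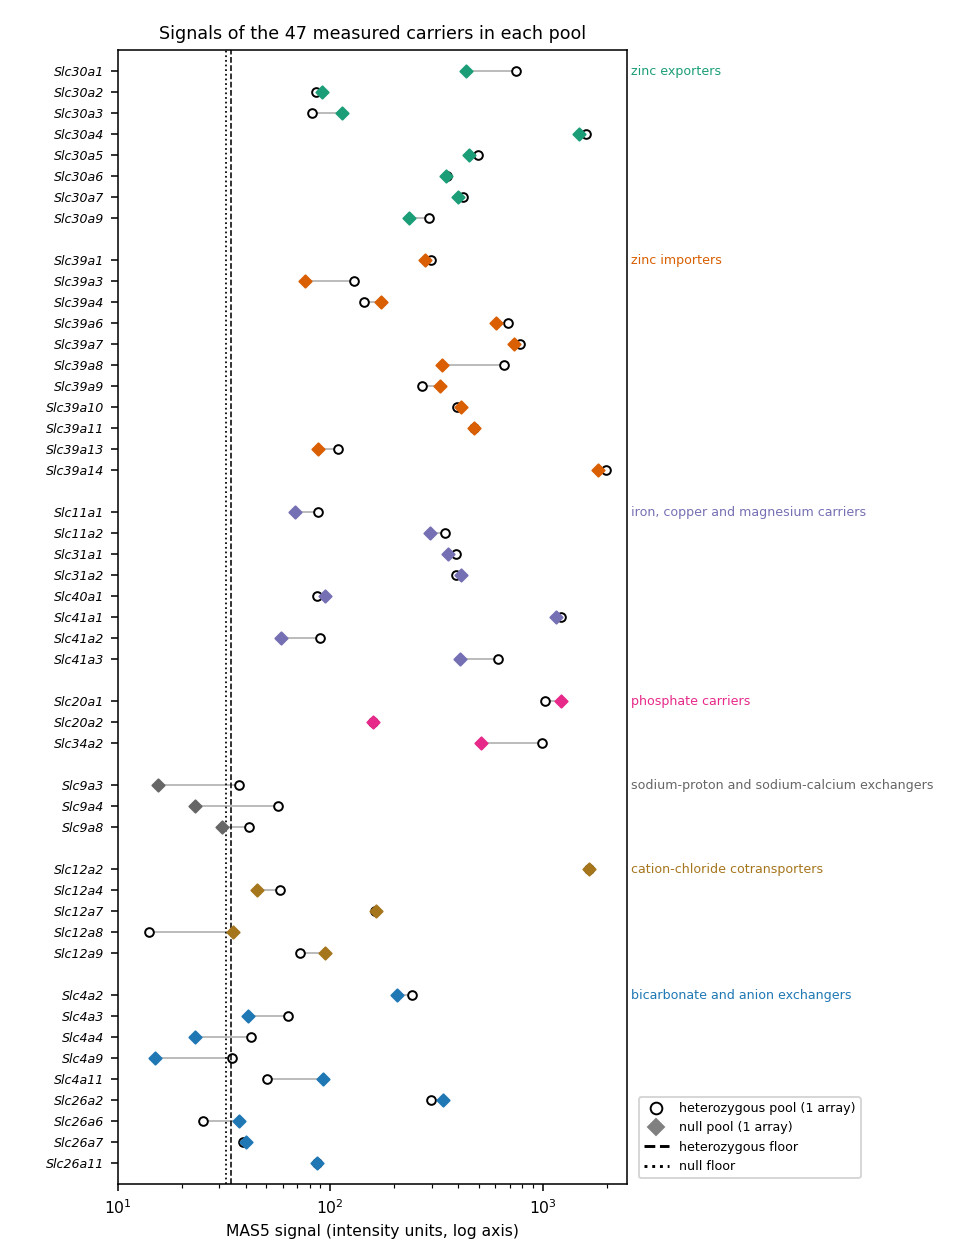
MAS5 signal in intensity units on a log axis for the 47 measured carriers, grouped by role, with the heterozygous pool as open circles and the null pool as diamonds (1 array each, no error). Dashed and dotted lines are the floors of 34.2 and 32.5 units, and signals are comparable between pools but not between genes, which have different probes. Slc30a1, Slc39a8 and Slc34a2 have the null point well to the left of the heterozygous point.

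The 273 other Slc genes, of which 162 were measured, had a median of -0.05, with 12 at least 1.5-fold lower (7.41%) and 5 higher (3.09%). Amino acid carriers, of which 31 of 58 were measured, had a median of -0.07, with 2 at least 1.5-fold lower (6.45%) and 1 higher (3.23%). Among the carriers described here the same counts were 8 lower (17.0%) and 1 higher (2.13%) of 47, and over all measured genes the shares were 4.93% and 5.83%. These are descriptions of the same 2 arrays, with no test of the difference.

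Zinc exporters were measured in 8 of 10 genes, all above both floors, with a median log2 ratio of -0.10 (0.17 after rescaling). Slc30a1 (ZnT1), which moves zinc out across the plasma membrane and is induced by zinc, read 750 units in the heterozygous pool and 434 in the null pool, 1.73-fold lower. Its log2 ratio was -0.79, where genes of similar signal had a robust SD of 0.25, and 2.27% of all measured genes had a ratio as low. Its second probe set read 104 and 63.1 units, a ratio of -0.73, so both probe sets of this gene were lower in the null pool. On the rescaled axis the brightest probe set still lay below 0, at -0.56.

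The exporters that load zinc into milk vesicles differed little between the pools as deposited. Slc30a4 (ZnT4), the gene mutated in the lethal milk mouse, read 1593 and 1480 units, a log2 ratio of -0.11, and 0.12 after rescaling. Slc30a2 (ZnT2), which fills secretory vesicles with zinc, read 86.3 and 91.2 units, a ratio of 0.08, and 0.31 after rescaling. Genes of similar signal had a robust SD of 0.42. The secretory pathway exporters Slc30a5, Slc30a6 and Slc30a7 had ratios of -0.14, -0.01 and -0.09, and the first and second of them 0.09 and 0.22 after rescaling. Slc30a5 read 495 and 450 units. The probe sets of Slc30a7 lay on either side of 0, with 423 and 398 units at the brightest and 391 and 426 units (0.13) at the other. After rescaling the latter was the brighter, with a ratio of 0.35. Slc30a9 had -0.31, from 293 and 236 units. Slc30a3, known from synaptic vesicles, had the highest ratio of the exporters, at 81.9 and 114 units (0.48), with 0.39 as the robust SD of genes of similar signal. Slc30a8, the insulin granule exporter, and Slc30a10, a manganese exporter, were below both floors.

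Zinc importers were measured in 11 of 14 genes, all above both floors, with a median of -0.11 (0.12 after rescaling). Slc39a8 (ZIP8), which takes up zinc and manganese, had the lowest ratio of all the measured carriers. It read 659 units in the heterozygous pool and 336 in the null pool, 1.96-fold lower. Its log2 ratio of -0.97 compares with a robust SD of 0.25 among genes of similar signal, and 1.08% of all measured genes were as low. The second probe set read 166 and 91.0 units, a ratio of -0.87. Rescaled, the brightest probe set had -0.74. Slc39a3 (ZIP3), a plasma membrane importer, read 130 and 76.0 units, 1.71-fold lower, but its second probe set read 87.9 and 85.3 units, a ratio of -0.04. The difference of Slc39a3 therefore rests on 1 of 2 probe sets.

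**Figure D2:**
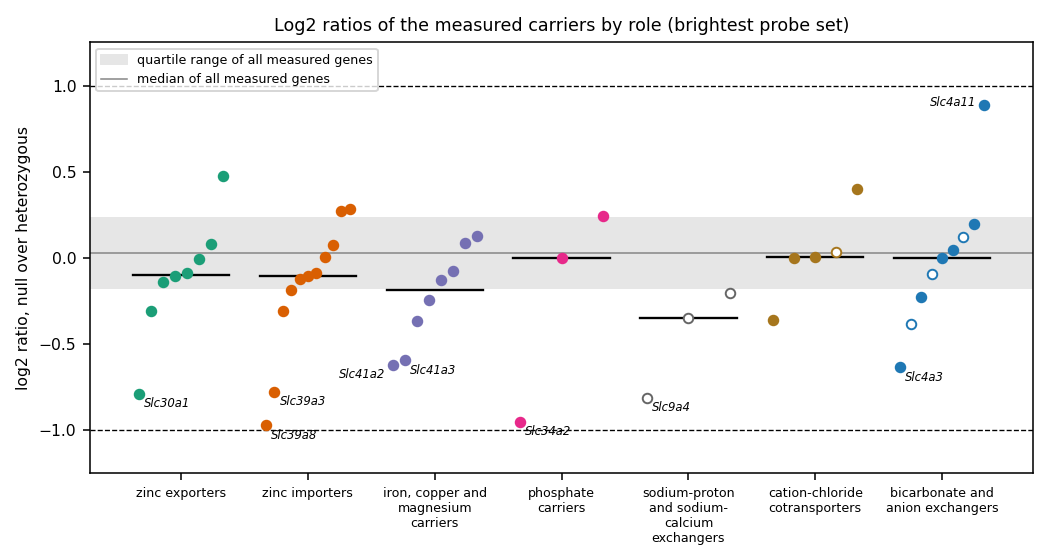
Log2 ratio of null over heterozygous for each measured carrier at its brightest probe set, by role, with filled points above both floors and open points at the floor on 1 array, where the ratio is a bound. Short black lines are role medians, the grey band spans the quartiles of all measured genes (-0.18 to 0.23), and dashed lines mark 2-fold. No point passes either dashed line, and Slc39a8 and Slc34a2 lie just inside the lower one.

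Most other importers lay close to the median of all genes. Slc39a14 (ZIP14), which carries manganese, iron and zinc and is the nearest relative of ZIP8, read 1991 and 1829 units, a ratio of -0.12. Its dimmer probe sets above both floors had -0.35 (540 and 423 units), -0.51 (403 and 283 units) and 0.06 (37.8 and 39.3 units), so 3 of its 4 probe sets were lower as deposited. After rescaling the brightest had 0.10. Slc39a7 (ZIP7), which releases zinc from the endoplasmic reticulum, read 785 and 729 units (-0.11, or 0.12 rescaled). Slc39a6 (LIV-1), an oestrogen-regulated importer known from breast cancer, read 684 and 600 units (-0.19, or 0.04 rescaled), with -0.56 at its second probe set. Slc39a9, Slc39a4 and Slc39a10 had ratios of 0.28, 0.27 and 0.07, and Slc39a1, Slc39a11 and Slc39a13 had -0.09, 0.00 and -0.31. Slc39a4 is the gene of the human zinc deficiency acrodermatitis enteropathica. Slc39a2, Slc39a5 and Slc39a12 were below both floors.

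The iron, copper and magnesium carriers were all measured, 8 of 8 above both floors, with a median of -0.19 (0.04 after rescaling). Slc11a2 (DMT1), which imports ferrous iron, read 349 and 295 units, a ratio of -0.24. Its other probe sets had -0.22 and -0.31, and the dimmest was at the floor in null cells (52.9 and 31.4 units), so its probe sets all read lower as deposited. The rescaled ratio of the brightest was -0.02. Slc40a1 (ferroportin), the iron exporter, read 86.3 and 94.3 units (0.13) at one probe set and 65.6 and 98.0 units (0.58) at the other. Macrophages also carry ferroportin, and the macrophage and myeloid marker list had a median of 0.33 over its 6 members. Its part in the ferroportin ratio was not tested. Slc11a1 (NRAMP1), the metal pump of the macrophage phagosome, read 88.1 and 68.4 units (-0.36), while 5 of the 6 markers were above 0 and Adgre1 was at -0.09.

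Of the copper carriers, Slc31a1 (CTR1), the copper importer, read 392 and 358 units (-0.13), with -0.24 at its second probe set. Slc31a2, a related protein of intracellular vesicles, read 390 and 415 units (0.09), with 0.03 at its second. Magnesium carriers were lower in all 3 genes as deposited. Slc41a3, which serves mitochondrial magnesium, read 618 and 409 units, 1.51-fold lower (-0.59). The robust SD of genes of similar signal was 0.25, and 4.73% of all measured genes were as low. Slc41a2 read 89.8 and 58.4 units, 1.54-fold lower (-0.62), against a robust SD of 0.44 at its signal. Slc41a1, a plasma membrane magnesium carrier, read 1222 and 1159 units (-0.08, or 0.15 rescaled), and its dimmer probe set 77.1 and 53.7 units (-0.52). Rescaled, Slc41a2 and Slc41a3 were at -0.39 and -0.37.

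Among the phosphate carriers, 3 of 5 genes were measured and they pointed different ways. Slc34a2 (NaPi-IIb), the sodium-phosphate cotransporter of the apical membrane of secretory epithelium, read 996 units in the heterozygous pool and 515 in the null pool, 1.93-fold lower. Its log2 ratio was -0.95, against a robust SD of 0.25 among genes of similar signal. Of all measured genes, 1.18% were as low, and the rescaled ratio was -0.72. The gene has 1 probe set here, so no second reading of it was made. The 8 secretory luminal markers had a median of -0.11, from -0.52 for Lalba to 0.26 for Epcam. The ratio of Slc34a2 was below that of each of these 8 markers. Csn3, Wap and Csn2 read 17785, 15403 and 14669 units in the heterozygous pool, where the array maximum was 19898. How ratios behave so near the maximum was not tested, nor was the part of secretory cell share in the Slc34a2 ratio.

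The other phosphate carriers, the housekeeping cotransporters PiT1 and PiT2, were not lower in the same way. Slc20a1 (PiT1) read 1031 and 1219 units, a ratio of 0.24, and its second probe set 268 and 416 units, a ratio of 0.63. Both probe sets were higher in the null pool, while Slc34a2 was lower. Slc20a2 (PiT2) read 159 and 159 units (-0.00, or 0.22 rescaled), with -0.08 at its second probe set. Slc34a1 and Slc34a3, the phosphate carriers of the kidney, were below both floors.

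**Figure D3:**
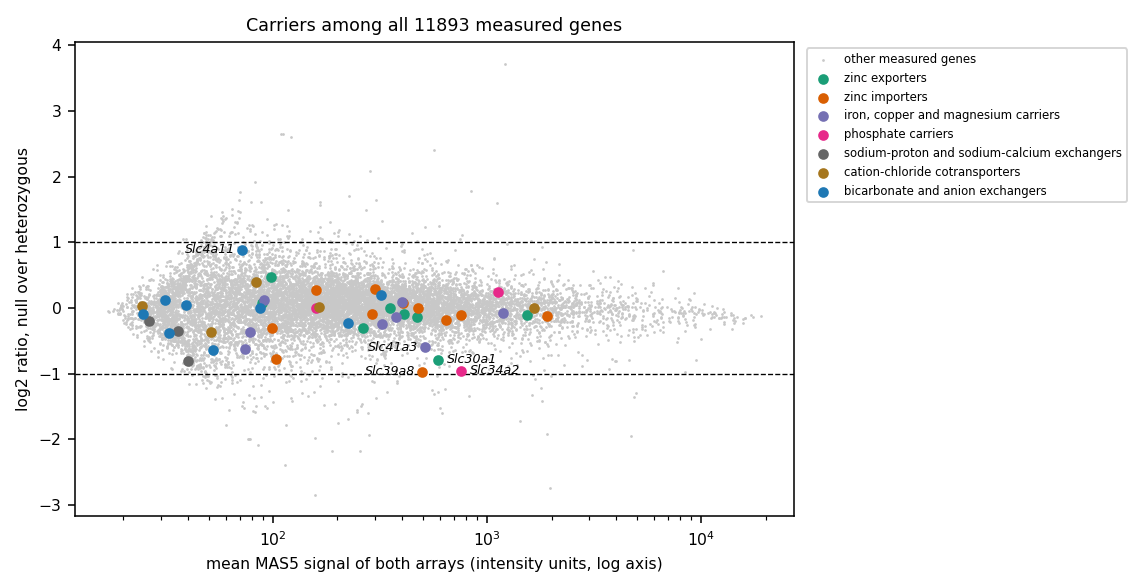
Log2 ratio of null over heterozygous against the mean signal of both arrays (log axis) for all 11893 measured genes in grey, with the 47 carriers coloured by role and dashed lines at 2-fold. Slc39a8, Slc34a2 and Slc30a1 lie at the lower edge of the genes of similar signal, while Slc4a11 lies where the grey cloud is wider.

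Sodium-proton and sodium-calcium exchangers were mostly near background. Of 10 genes, 3 were measured (median -0.35, or -0.12 rescaled), and each of these was above the floor in heterozygous cells alone. Slc9a4, an exchanger best known from the stomach, read 57.0 and 23.2 units. It was at least 1.75-fold lower as deposited, on a robust SD of 0.57 at that signal. Slc9a8, a Golgi exchanger, read 41.4 and 30.9 units, and Slc9a3 (NHE3), the apical exchanger of gut and kidney, 37.4 and 15.5 units. These are at least 1.27-fold and 1.15-fold lower as deposited. The floored ratio of Slc9a8 was -0.12 after rescaling, from signals of 41.4 and 36.2 units. Slc9a3 had a floored ratio of 0.03 after rescaling, from signals of 37.4 and 18.2 units. Its null signal was raised to the floor, so this ratio does not show a loss of direction. The sodium-calcium exchangers Slc8a1, Slc8a2 and Slc8a3 were below both floors, as were Slc9a2, Slc9a5, Slc9a7 and Slc9a9. A dimmer probe set of Slc9a5 read 38.8 units in the heterozygous pool and 21.6 in the null pool.

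Cation-chloride cotransporters were measured in 5 of 8 genes, with a median of 0.01 (0.24 after rescaling). Slc12a2 (NKCC1), the sodium-potassium-chloride cotransporter of the basolateral membrane, read 1656 and 1657 units, a ratio of 0.00. Its other probe sets read 851 and 650 units (-0.39) and 528 and 418 units (-0.34), so the 3 probe sets of this gene did not give a single ratio. Slc12a7 (KCC4), a potassium-chloride cotransporter, read 163 and 164 units (0.01, but -0.02 with quantile normalization), with -0.56 at its second probe set (77.1 and 52.4 units). Slc12a9 read 72.2 and 95.1 units (0.40) and Slc12a4 (KCC1) 57.8 and 45.1 units (-0.36). Slc12a8 was above the floor in null cells alone, at 35.0 units. Slc12a1 and Slc12a3, the kidney targets of loop and thiazide diuretics, and the neuronal Slc12a5 were below both floors.

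Bicarbonate and anion exchangers were measured in 9 of 19 genes, with a median of 0.00 (0.23 after rescaling). Slc4a11, a membrane transporter of proton equivalents and water known from the corneal endothelium, read 50.2 units in the heterozygous pool and 92.8 in the null pool, 1.85-fold higher. Its ratio of 0.89 was the highest of the measured carriers, and 1.77% of all measured genes were as high. The heterozygous signal was close to the floor and genes of similar signal had a robust SD of 0.44. Its dimmer probe set, at 21.5 and 14.5 units, was below both floors. With 32 units added to each signal in place of a floor, the ratio was 0.60, and after rescaling it was 1.11. The fibroblast markers had a median of 0.59 and the vascular endothelial markers one of 0.45, each above 0 in 6 of 6, and their part in this ratio was not tested.

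The remaining Slc4a members were lower as deposited or near the floor. Slc4a2 (AE2) read 242 and 207 units (-0.23, or 0.00 rescaled). Slc4a3 (AE3) read 63.7 and 41.0 units, 1.55-fold lower (-0.63), with a robust SD of 0.52 at that signal. The sodium-bicarbonate cotransporter Slc4a4 and its relative Slc4a9 were above the floor in heterozygous cells alone, at 42.4 and 34.6 units. Slc4a1, the band 3 protein of red cells, was below both floors, as were Slc4a5, Slc4a8 and Slc4a10. Of the Slc26a anion carriers, Slc26a2, the sulfate carrier needed for sulfated matrix, read 297 and 341 units (0.20). Its dimmer probe sets had -0.19 and -0.39, so this gene has no single direction. Slc26a11 read 86.8 and 86.9 units (0.00, but -0.02 with quantile normalization), and Slc26a7 38.8 and 40.0 units (0.05). Slc26a6 was above the floor in null cells alone, at 37.2 units. Slc26a1, Slc26a3, Slc26a4, Slc26a5, Slc26a8 and Slc26a10 were below both floors.

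Agreement between probe sets limits how far a single ratio can be read. Of 142 member probe sets, 72 were above the floor on at least 1 array. None was 2-fold apart, where 2.15% of all measured probe sets were (0.965% higher and 1.19% lower), and 11 were at least 1.5-fold lower (6.41% of all) and 2 at least 1.5-fold higher (5.61% of all). In 17 genes at least 2 probe sets were above both floors. The 2 brightest lay on the same side of 0 in 13 of these 17 genes (76.5%), against 65.0% of 4722 genes in all. The robust SD per probe set was 0.28 among the carriers and 0.21 among all genes. Both probe sets of a gene read the same pools, so this spread holds no difference between animals. Of the 8 genes at least 1.5-fold lower, Slc39a8 and Slc30a1 were the ones with a second probe set above both floors that was also at least 1.5-fold lower. Besides them, Slc39a3 alone had a second probe set above both floors, so the rest of the 8 could not be checked in this way. The dimmer probe sets of Slc41a3 and Slc4a3 were below both floors.

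**Figure D4:**
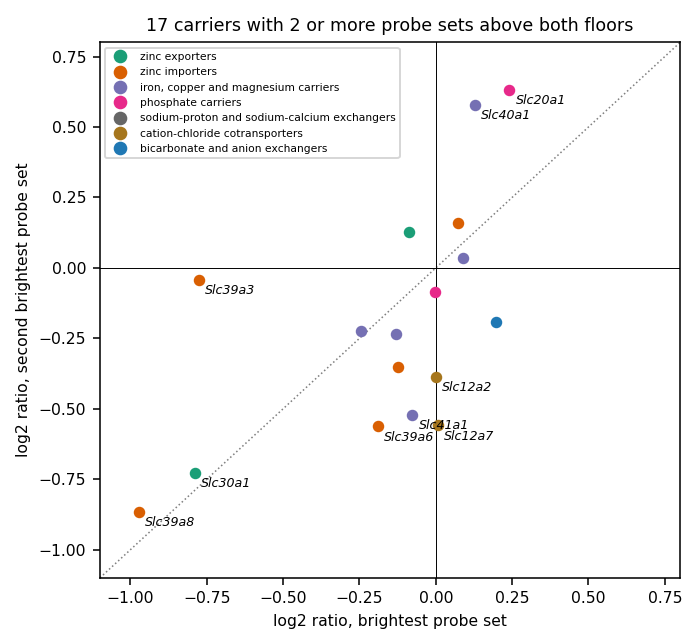
Log2 ratio of null over heterozygous at the brightest probe set (horizontal) and the second brightest (vertical) for the 17 carriers with at least 2 probe sets above both floors, coloured by role, with equality dotted. Slc39a8 and Slc30a1 lie near the dotted line at the lower left, Slc39a3 is low on the horizontal axis alone, and Slc12a2, Slc12a7, Slc41a1 and Slc39a6 are lower on the vertical axis.

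Proteins that work with these carriers were read from 3 lists. Of the genes for metal sensing, binding and storage, 30 of 34 listed were measured, with a median of -0.17 (0.05 after rescaling). Past 2-fold, 1 was higher (1.12% of all genes) and 0 were lower (1.03%). The higher gene was Heph, the ferroxidase hephaestin that works with ferroportin, at 46.7 and 98.6 units (2.11-fold). At 1.5-fold, 3 of the 30 were lower (10%, against 4.93% of all genes): Ltf, milk lactoferrin, at 2439 and 1263 units (-0.95), Hmox1, which frees iron from haem, at 1334 and 699 units (-0.93), and Cnnm2, a magnesium handling protein, at 234 and 141 units (-0.74). Rescaled, Ltf and Hmox1 were at -0.72 and -0.71, and Cnnm2, at -0.51, was no longer 1.5-fold lower. Fth1, the ferritin heavy chain, read 12803 and 11541 units (-0.15, or 0.08 rescaled). Tfrc, the transferrin receptor, read 2271 and 1548 units (-0.55, or -0.33 rescaled). The zinc-binding metallothioneins Mt1 and Mt2 read 10281 and 8375 units (-0.30) and 9075 and 6372 units (-0.51), and Mtf1, their zinc-sensing regulator, 130 and 114 units (-0.19). Rescaled, Mt1 and Mt2 were at -0.07 and -0.28 and Mtf1 at 0.03, beside -0.56 for Slc30a1.

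Among regulators of chloride, pH and cell volume, 24 of 33 listed genes were measured, with a median of 0.01 (0.23 after rescaling). No gene of it was 2-fold higher (1.12% of all genes) and 1 was 2-fold lower (1.03%). This was Car4, a membrane-bound carbonic anhydrase that supplies bicarbonate carriers, at 122 and 58.4 units (2.09-fold). After rescaling its log2 ratio was -0.83, which is no longer 2-fold. At 1.5-fold, 3 of the 24 were lower (12.5%, against 4.93% of all genes): Car4, Car13 and Car15, the last at the floor in null cells. Rescaled, Car13 was at -0.54, short of 1.5-fold. Car15 was at -0.48, but this is a bound set by the floor and cannot show that Car15 fell short. Car13, a cytosolic carbonic anhydrase, read 387 and 227 units (-0.77), and Car2, the common cytosolic form, 3057 and 3483 (0.19). The kinases that control Slc12a cotransporters had ratios of -0.02 for Wnk1, 0.24 for Stk39 and -0.02 for Oxsr1. Rescaled, Wnk1, Stk39 and Oxsr1 were at 0.21, 0.46 and 0.21. The scaffold Slc9a3r1 read 1555 and 1843 units (0.25). In the list for calcium and phosphate control, 10 of 14 genes were measured, with a median of -0.10 (0.12 after rescaling). Past 2-fold, 1 was higher (1.12% of all genes) and 0 were lower (1.03%). The higher gene was Cyp24a1, which breaks down active vitamin D, at 124 and 276 units (2.22-fold). Vdr, the vitamin D receptor, had -0.17 (0.06 rescaled) and Xpr1, the phosphate exporter, 0.01 (0.24 rescaled).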

How the data were processed

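Per the submitters' processing notes, the authors made the deposited signal intensities, 1 linear value per probe set and array, with MAS5 in Affymetrix Expression Console version 1. Their genome build was not given in the sources used here, and detection calls were not analysed here. Genes were named from the platform's probe table: 34945 probe sets had 1 symbol, 932 had several and 9160 were not listed. Symbols were updated through Entrez IDs in RefSeq, which held 100% of the member probe sets.

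Values were floored, and the log2 ratio was taken at each gene's brightest probe set (Python 3.11.15, pandas 2.3.3). Genes at least 2-fold or 1.5-fold apart were counted by size. With 1 array per genotype no test was run and no error between animals exists, and the number of arrays limits the precision. A robust SD of the ratios was taken in 20 bins of signal. It mixes noise with true differences. The calculation was tested on simulated data.

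Members and lists were chosen with earlier results of these data known, and the 1.5-fold counts were added after the signals were seen. Described in full are the 26 genes that were at least 1.5-fold apart, among the 3 brightest of their role, or had probe sets on opposite sides of 0 at least 1.5-fold from each other. Of the other lists, members at least 2-fold apart were named, and the rest after their values were seen. Floor, pseudocount, filter, scaling and choice of probe set were varied. The controls used for rescaling were exchanged once, after the older ones had been run.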

Additional observations from a re-analysis of the deposited data

How the results depend on the processing

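No paired analysis was possible because each genotype has 1 array. A median or ratio was taken as moved where it changed by at least 0.21, the robust SD per probe set, and a count where it changed by over 1.5 times. The count of 0 members at least 2-fold lower became 5 of 68 with the floor at the 25th percentile. It became 3 of 47 with no floor and 8 of 47 at 1.5-fold. Of all genes, 817 of 16091, 368 of 11893 and 4.93% were as far lower under these settings. The count of 0 at least 2-fold higher became 3, 1 and 1 under the same settings. It became 1 (Slc4a11) after rescaling to the newer or to the older hybridization controls. Of all genes, 666 of 16091, 370 of 11893 and 5.83% were as far higher. After rescaling these were 349 of 11890 with the newer and 292 of 11889 with the older controls. With no floor, the 3 lower genes were Slc9a4, Slc9a3 and Slc4a9 and the 1 higher was Slc12a8, each of them below the main floor on 1 array. The 8 members at least 1.5-fold lower became 14 with the floor at the 25th percentile, 4 at the 75th, 5 with log2(signal + 32), 2 after rescaling to the newer and 5 to the older controls, and 2 of 19 at the second brightest probe set. The 1 at least 1.5-fold higher became 6 of 68 and 0 of 27 with the floor at the 25th and 75th percentile. It became 2 of 47 with no floor and 2 of 45 with plain probe sets alone. After rescaling it became 3 with the newer and 2 with the older controls. Of all genes, 11.4%, 2.60%, 8.70%, 6.07%, 15.1% and 12.6% were as far higher, in the same order. The median of -0.09 moved to 0.14 with the newer controls. With the older controls it was 0.09, above 0 but less than 0.21 away, and the choice between them was made after both were seen. Under the other settings it ran from -0.22 to -0.09. Quantile normalization, the filter to genes above both floors and the mean over probe sets moved no count and not the median. Of 259 ratios of the 26 genes under alternatives, 211 stayed within 0.21, 48 moved, and 23 had the other sign, none of them of a gene at least 1.5-fold apart. The cause of these moves was not tested beyond what each setting does. Signals near the floor limit what can be read for the 27 carriers below both floors.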
